A study of Mus musculus with 2 samples.

Results

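Mast cells are tissue-resident cells of the immune system, and the genes described here encode the products by which they are usually recognized. The list held 9 genes: Cma1 and Mcpt4, which encode the granule chymases MCP-5 and MCP-4; Tpsab1 and Tpsb2, which encode the tryptases MCP-7 and MCP-6; Cpa3, which encodes the granule carboxypeptidase; Hdc, which encodes histidine decarboxylase; Fcer1a and Ms4a2, which encode the alpha and beta subunits of the high-affinity IgE receptor; and Mrgprb2, a receptor of mast cells for substance P and other basic peptides. They were taken by name, from the RefSeq transcripts to which the probes were assigned, and not by any measured value. Of the 20658 named genes on the array, 8 were of this list, with 9 probes, each printed at 1 spot per array. No probe was paired with Tpsab1, which RefSeq lists as a transcribed pseudogene in the reference strain, and it was not analysed here.

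The tissue was whole mouse ovary at an age of 2 weeks, divided lengthwise into matching pieces that were kept in culture with tachykinin receptor (TKR) agonists or with TKR antagonists over 3 days. The agonists were [Sar9, Met(O2)11]-SP for TACR1, GR-64349 for TACR2 and the substance P fragment 6-11 analog succinyl-[Asp, N-Me-phe8]sp for TACR3, and the antagonists were L-703,606 for TACR1, GR-94800 for TACR2 and SB218795 for TACR3, each at 1 μM. RNA of each group was hybridized to 1 single-color oligonucleotide array, on which the brightness of a spot follows the amount of its labeled transcript, and both arrays lay on the same slide. The strain and the number of ovaries behind each RNA are not given in the sources used here, and no array of untreated ovaries was analysed. A single array stood for each group, so the variation between ovaries is unknown, no test was made, and a higher value with agonists cannot be told apart from a lower value with antagonists. Leaving out controls there were 59305 spots, of which the image software marked 65.4% with agonists and 61.6% with antagonists as well above background and 0 as saturated.

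In mast cells the proteases are stored in granules, bound together with histamine to the proteoglycan serglycin, and are set free when the cell degranulates. Antigen does this through IgE and its receptor, whose alpha subunit binds IgE and whose beta and gamma subunits carry the signal, whereas substance P and other basic peptides do it through Mrgprb2 without IgE. Mast cell precursors enter tissues from the blood and need KIT and its ligand, as well as the factors GATA2 and MITF, to mature. Histidine decarboxylase makes histamine from histidine, and its gene is not particular to mast cells, being used also by basophils and by some other myeloid cells. Mast cells of the ovary lie mostly in the medulla, the hilum and the stroma around vessels.

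The start-site regions of these genes are shown because Gata1 and Gata2, which encode some of the factors that recognize GATA sites, were themselves measured on the arrays. Other genes of this family were not read here. RefSeq promoters on GRCm38.p6, from 250 bases before to 50 bases after the start, were at hand for 7 of the 9 genes, Tpsab1 and Tpsb2 being the other two. The motif AGATAA or TGATAA, read on both strands, is in capitals. It was chosen after these sequences had been seen, and a match describes the letters only. Hdc at chr2:126618629-126618928, Cpa3 at chr3:20242132-20242431, Ms4a2 at chr19:11623670-11623969 and Mrgprb2 at chr7:48558037-48558336, all of the minus strand, read 5′ to 3′ as follows.
Hdc: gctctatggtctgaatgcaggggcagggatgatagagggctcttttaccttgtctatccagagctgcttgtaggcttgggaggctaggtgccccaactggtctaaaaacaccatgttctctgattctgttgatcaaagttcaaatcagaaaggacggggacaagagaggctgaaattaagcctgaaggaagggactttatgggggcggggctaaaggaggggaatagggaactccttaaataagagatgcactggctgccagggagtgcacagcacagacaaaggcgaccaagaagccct
Cpa3: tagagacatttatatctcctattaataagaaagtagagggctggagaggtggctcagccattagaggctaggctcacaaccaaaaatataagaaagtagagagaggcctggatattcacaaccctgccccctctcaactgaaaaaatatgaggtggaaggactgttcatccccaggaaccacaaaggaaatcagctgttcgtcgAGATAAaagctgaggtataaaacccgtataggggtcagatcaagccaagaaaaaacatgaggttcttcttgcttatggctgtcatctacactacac
Ms4a2: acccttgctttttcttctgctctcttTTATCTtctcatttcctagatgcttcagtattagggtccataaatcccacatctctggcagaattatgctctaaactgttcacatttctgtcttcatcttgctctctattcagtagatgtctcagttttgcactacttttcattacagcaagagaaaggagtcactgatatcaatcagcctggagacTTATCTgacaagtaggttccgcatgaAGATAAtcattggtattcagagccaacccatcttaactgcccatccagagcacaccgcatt
Mrgprb2: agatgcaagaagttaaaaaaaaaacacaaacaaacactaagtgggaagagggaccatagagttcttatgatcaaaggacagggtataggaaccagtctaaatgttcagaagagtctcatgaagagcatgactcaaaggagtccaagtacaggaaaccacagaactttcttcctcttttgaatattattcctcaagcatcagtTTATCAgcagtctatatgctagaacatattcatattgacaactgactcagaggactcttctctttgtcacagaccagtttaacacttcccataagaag

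The motif was present in 5 of the 7 promoters, and in 18.6% of 32851 promoters of the same length. Its first base lay at -46 from the start in Cpa3, at -103 in Mcpt4, at -92 in Fcer1a and at -48 in Mrgprb2, and Ms4a2 held it at -224, -37 and -11. These letters are not in the windows of Hdc and Cma1. The related GATA forms TGATAG and AGATAG were not counted. TGATAG is in the window of Hdc, and CTATCT, the reverse complement of AGATAG, is in that of Cma1. The counts are therefore not counts of all GATA sites. A motif of another kind of factor, CACGTG or CATGTG on both strands, was in 1 of the 7, Fcer1a, and in 20.4% of all promoters.

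On the arrays the genes fell into a measured and an unmeasured set. Hdc and Tpsb2, the latter by its brighter probe only, were well above background on both arrays. Cma1, Mcpt4, Cpa3, Fcer1a, Ms4a2 and Mrgprb2 were well above background on neither array. Among all named genes, 73.9% were well above background on both arrays and 21.2% on neither. Hdc was higher with agonists and Tpsb2 differed by less than the error of its spots. Of the list, 1 gene was at least 2-fold higher with agonists, beside 4.51% of the 16278 named genes (78.8% of all) that either array measured, and 0 were at least 2-fold lower, beside 0.854%.

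**Figure D1:**
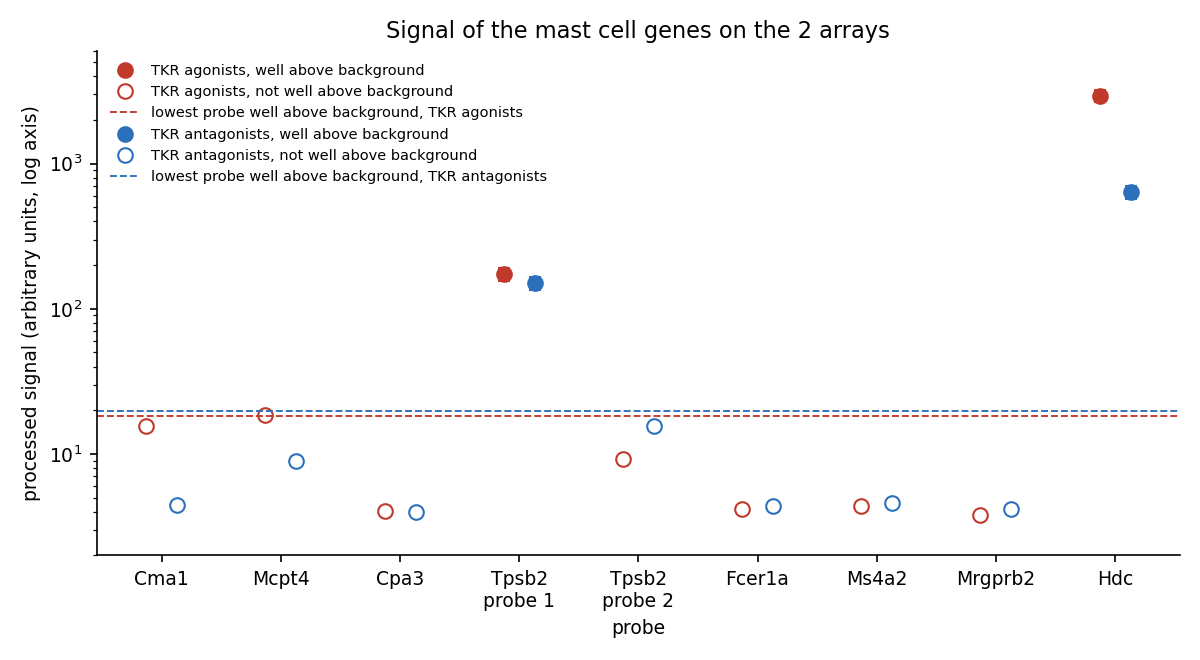
Processed signal (arbitrary units, log axis) of each of the 9 probes on the TKR agonist array (red) and the TKR antagonist array (blue); filled points are well above background, open points are not, bars are the error of the image software where the point is filled, and dashed lines are the lowest signal of any probe well above background (18.1 with agonists, 19.9 with antagonists). Hdc and the first Tpsb2 probe lie above both lines on both arrays, and all other points are open.

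Hdc makes the only enzyme of histamine synthesis. Its probe (transcript NM_008230) gave a processed signal of 2946 ± 295 with agonists and 634 ± 63.5 with antagonists, where the error is that of the image software for 1 spot. After each signal was divided by the 75th percentile of its array (672 with agonists, 569 with antagonists), the agonist value was 3.93-fold the antagonist value, a log2 ratio of 1.98 with an error of 0.20 from the same software errors. The agonist array was thus the high one by far more than the error of the spot, which says nothing of the spread between ovaries.

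Among the 15258 named genes well above background on both arrays, 109 (0.714%) had a log2 ratio at least that of Hdc. Dim spots scatter more, so the same was counted among the 4063 genes whose mean signal lay within 1 log2 unit of that of Hdc: 109 of these (2.68%) were at least 2-fold higher with agonists and 16 (0.394%) reached the ratio of Hdc. The place of Hdc on the array was looked at as well. The 153 spots well above background within 10 rows and columns of it had a median log2 ratio of -0.11 with an SD of 0.40, and 0 of them had a ratio as large. Probes printed at 10 or more spots, of which there were 284, had a median SD of 0.07 between the log2 ratios of their spots, which is the size of error that printing and scanning give. Hdc has 1 spot and 1 probe, so no other spot or probe of the gene checks its value.

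**Figure D2:**
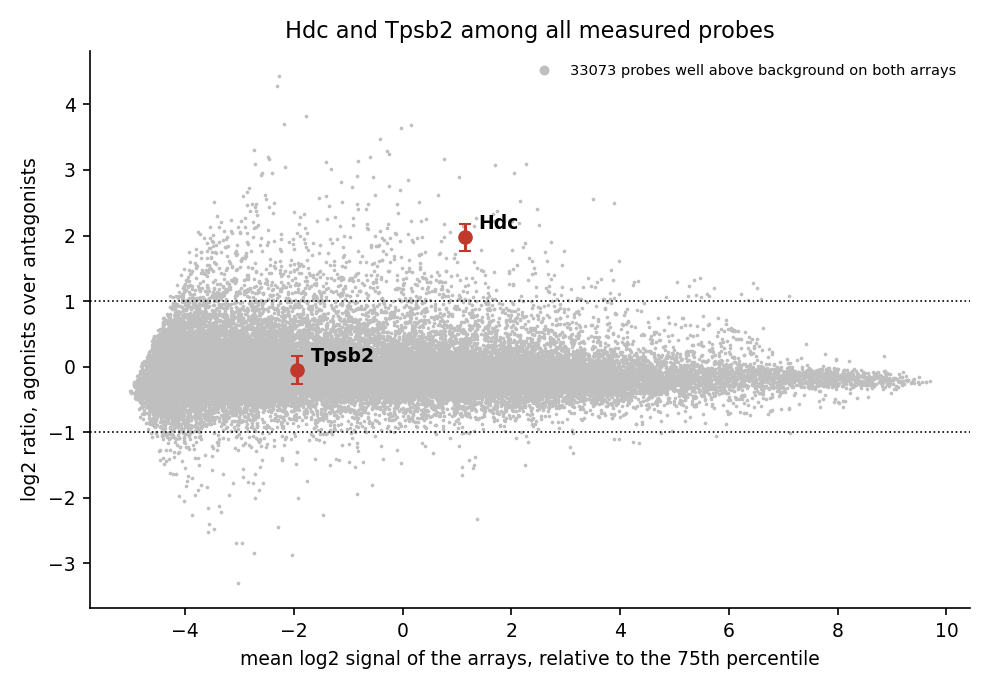
Log2 ratio (agonists over antagonists) against the mean log2 signal of the arrays relative to the 75th percentile, for the 33073 probes measured on both (grey) and for Hdc and Tpsb2 (red, bars are the error of the image software); dotted lines mark 2-fold. Hdc at 1.98 lies above the 2-fold line among sparse points, and Tpsb2 at -0.05 lies within the dense band.

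The tryptase gene Tpsb2 is read by a pair of probes for the same transcript (NM_010781). The first gave 172 ± 17.8 with agonists and 151 ± 15.8 with antagonists, a log2 ratio of -0.05 with an error of 0.21. The arrays therefore did not differ by more than the error of the spots, and a small difference in either direction would not be seen at this precision. Of the 243 measured spots within 10 rows and columns, whose median log2 ratio was -0.10, 102 had a ratio at least as large. Of 3006 genes well above background within 1 log2 unit of its mean signal, 22.7% lay within 0.1 log2 unit of 0, as Tpsb2 did. The second probe, at 9.16 with agonists and 15.5 with antagonists, was not well above background on either array and gives no ratio. The probes for this transcript thus did not give the same answer as to its detection. Near-identical tryptase genes can share labeled RNA on a probe, and the sequences of these probes were not used here. Which transcripts the first probe reads was not tested.

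The chymase genes Cma1 and Mcpt4 were not well above background on either array. Cma1 gave 15.5 with agonists and 4.46 with antagonists, and Mcpt4 gave 18.4 with agonists and 8.99 with antagonists. The lowest signal of any probe well above background was 18.1 with agonists and 19.9 with antagonists, so that these signals lie about or under the limit of the array and give no ratio. Before the software set its floor, the background-subtracted signals were 14.6 and -0.46 for Cma1 and 17.2 and 8.48 for Mcpt4, in the same order. Both were higher than 99.0% of the 308 negative control spots with agonists. With antagonists, Mcpt4 was still higher than 98.1% of them, and Cma1 than 89.3%.

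Cpa3, the carboxypeptidase that is among the most abundant transcripts of connective-tissue mast cells, gave 4.05 with agonists and 4.01 with antagonists. Its background-subtracted signals of 4.30 and 2.19 were higher than 97.1% and 93.8% of the negative control spots. A weaker criterion of the software, a signal that is positive and significant against local background, was met by 4 of the 7 dim probes with agonists (Cma1, Mcpt4, Cpa3 and the second Tpsb2 probe) and by 2 with antagonists (Mcpt4 and the second Tpsb2 probe). Negative control spots met it 9 times with agonists and 11 times with antagonists, of 308. With agonists the dim protease probes thus stood above at least 97.1% of the negative controls, and met the weaker criterion, which no receptor probe did. With antagonists the classes were not separated in this way. There Cma1 stood above 89.3% of the negative controls and Cpa3 above 93.8%, beside 92.5% for the receptor gene Fcer1a. Neither Cma1 nor Cpa3 met the weaker criterion with antagonists.

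The receptor genes, like the other dim probes, lay inside the range of the negative controls, which reached 105 with agonists and 40.6 with antagonists. With agonists 3 of these controls were themselves well above background. Cma1, Mcpt4 and the second Tpsb2 probe were higher than 99.0% of the controls there. Fcer1a gave 4.19 with agonists and 4.36 with antagonists, with background-subtracted signals of -2.91 and 1.59 that exceeded 79.2% and 92.5% of the negative control spots. Ms4a2, which encodes the signal-amplifying beta subunit, gave 4.37 and 4.58, and its background-subtracted signals of -5.68 and -8.32 exceeded 57.5% and 32.8% of those spots. Mrgprb2 gave 3.81 and 4.17, and its background-subtracted signals of -0.45 and -3.71 exceeded 90.9% and 78.2%. No array of a tissue rich in mast cells was analysed here, so whether these probes detect their transcripts was not tested, and a signal within the negative controls does not show that a transcript is absent. A few mast cells in a whole ovary would give little RNA, and in bulk tissue fewer cells of a type and less RNA per cell cannot be told apart.

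**Figure D3:**
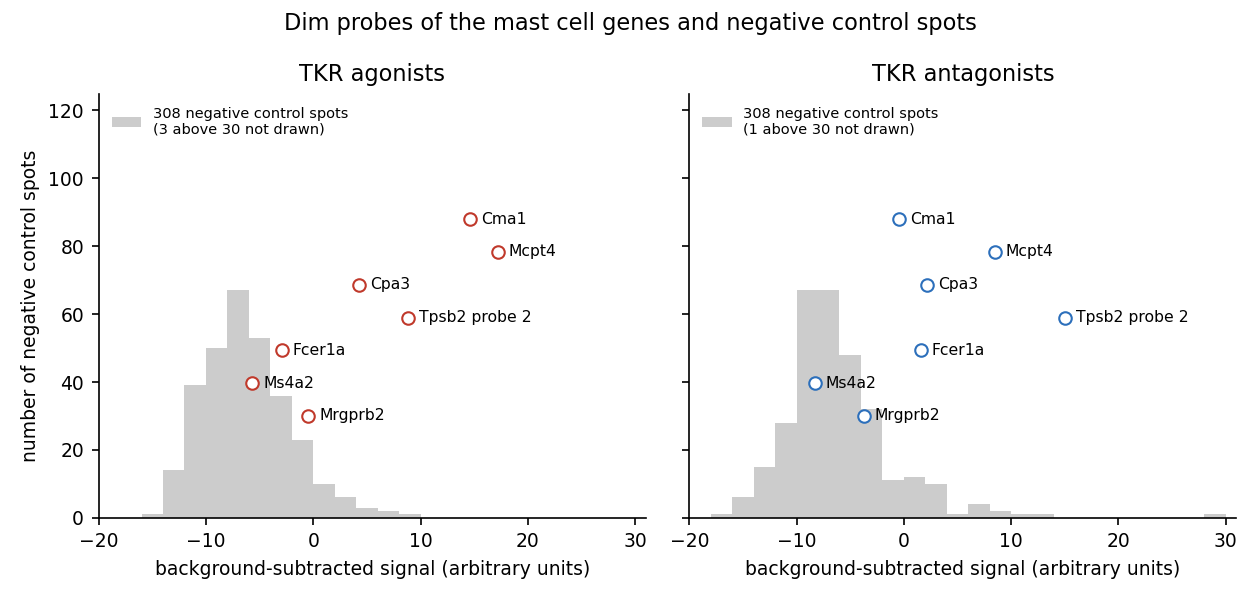
Background-subtracted signal (arbitrary units) of the 7 probes not well above background (circles, whose heights only separate the names) over the histogram of the 308 negative control spots (grey, number of spots in each bin of the signal) on each array. Cma1, Mcpt4 and the second Tpsb2 probe (14.6, 17.2 and 8.82) lie above 99.0% of the agonist controls, and Cpa3 (4.30) above 97.1%. These controls reach beyond the axis to 105, and Ms4a2 lies near the middle of them (-5.68).

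The neighbors of the chymase and tryptase genes were looked at for the same reason, since these genes lie in clusters. On chromosome 14 RefSeq orders Cma1, Mcpt1, Mcpt2, Mcpt9, Mcpt4, Mcpt8 and Ctsg, with other genes between Cma1 and Mcpt1, and then the granzyme genes up to Gzmb. Of these 7 genes and Gzmb, the other granzymes not being read here, Ctsg, the cathepsin G gene, was the only one well above background, at 24.3 with agonists and 24.7 with antagonists and a log2 ratio of -0.27. On chromosome 17 the order is Prss34, Prss28, Prss29, Tpsab1, Tpsb2 and Tpsg1. Prss34, a protease of basophils and mucosal mast cells, gave 32.4 with agonists and 29.7 with antagonists (log2 ratio -0.12), and Tpsg1, the transmembrane tryptase, was well above background on neither array.

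With Ctsc, whose product cathepsin C activates chymases and other granule proteases by trimming them, the list of other granule proteases had 3 of 9 genes measured. Ctsc gave 1330 with agonists and 518 with antagonists, a log2 ratio of 1.12, and is a lysosomal gene of many cell types. The median of the list was -0.12, beside -0.08 over all 16278 measured genes, and its sign changed with the scaling. Mcpt1, Mcpt2, Mcpt8, Mcpt9, Gzmb and Tpsg1 were well above background on neither array.

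Granule storage genes were read next, since histamine and proteases depend on them. Srgn, the serglycin core protein, gave 851 with agonists and 292 with antagonists (log2 ratio 1.30). Slc18a2, the vesicular monoamine transporter that loads histamine into granules, gave 2414 with agonists and 2263 with antagonists (log2 ratio -0.15, and 0.00 by its other probe). Of the list of 6 genes, 5 were measured, 2 above 0 and 3 below, with a median of -0.00 whose sign changed with the scaling. In this list 1 gene was at least 2-fold higher, beside 4.51% of all measured genes. Ndst2, which sulfates the serglycin chains of mast cells as heparin, had a log2 ratio of 0.24, and Vamp8, a fusion protein of granule release, had -0.07.

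Downstream of Hdc, the genes for histamine receptors and breakdown did not share its ratio. Hnmt, which methylates and so inactivates histamine, gave 550 with agonists and 331 with antagonists, a log2 ratio of 0.49, and its other probe gave 0.61. Hrh4, the histamine receptor of leukocytes, gave 232 and 197 (log2 ratio -0.00). Hrh1, the receptor of endothelium and smooth muscle, gave 132 and 126 (-0.18), with another probe well above background with agonists only, and Hrh3, known from neurons, gave 31.4 and 39.6 (-0.58). Aoc1, the diamine oxidase gene, was well above background on neither array, and no probe was paired with Hrh2. Of the 4 measured genes 1 was above 0, 3 were below and 0 reached 2-fold, with a median of -0.09 whose sign changed with the scaling.

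The factors and receptors of the mast cell lineage were measured more fully, 9 of 9 genes. Of these 8 were above 0 and 4 at least 2-fold higher with agonists, with a median log2 ratio of 0.97. The median of the list lay between 0.59 and 1.24 under all ways of processing tried. Over all measured named genes 4.51% were at least 2-fold higher, and the median was -0.08. Csf2rb counts among the 4 by its brighter probe only. The list of leukocytes in general had a similar median, 0.98. Gata1 gave 246 with agonists and 31.3 with antagonists, a log2 ratio of 2.73. Gata2 gave 165 with agonists and 60.9 with antagonists, a log2 ratio of 1.20. Both encode zinc-finger factors of mast cells, and they are used by erythroid and megakaryocyte precursors as well.

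Csf2rb, the beta chain shared by the receptors for IL-3, GM-CSF and IL-5, gave 964 with agonists and 155 with antagonists (log2 ratio 2.40), but its other probe, for the same transcript, gave 0.03. Such a gap between probes of a gene is rare on these arrays: 84 of 3781 genes with more than 1 measured probe (2.22%) had probes at least 1 log2 unit apart. Rgs13, a regulator of G-protein signaling in mast cells and B cells, was well above background with agonists only (61.4, against 4.35), at least 2.61-fold higher. Adora3, the adenosine receptor of mouse mast cells, was so with antagonists only (23.5, against 17.7), at least 1.53-fold lower with agonists.

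Kit, the receptor on which mast cells depend, gave 2251 with agonists and 1161 with antagonists, a log2 ratio of 0.71. In the ovary oocytes and theca cells also express Kit, so that its signal here is not one of mast cells alone. Kitl, its ligand, made in the ovary mainly by granulosa cells, gave 623 and 575 (log2 ratio -0.13). Among the other growth and attraction factors Tslp was at least 2.20-fold higher with agonists, Il33, an alarmin of stroma and endothelium that acts on mast cells, had a log2 ratio of 0.95, and Il3 had -0.39. The list had 7 of 9 genes measured, 5 above 0 and 2 below, and a median of 0.26. In it 1 gene was at least 2-fold higher, beside 4.51% of all measured genes.

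The IgE receptor was measured by its shared part only. Fcer1g, the gamma chain, which Fc receptors of macrophages and other myeloid cells use too, gave 2141 with agonists and 1188 with antagonists (log2 ratio 0.61), whereas the chains particular to mast cells and basophils in the mouse, Fcer1a and Ms4a2, were not well above background. Of the 9 genes of its signaling chain 8 were measured and 7 were above 0, with a median of 0.40, beside -0.08 over all measured genes. Inpp5d, the inhibitory phosphatase SHIP-1, was highest at 1.05, and Plcg2 (0.19) and the adaptor gene Lat (-0.22) were lowest. Of 6 genes for lipid mediators 5 were measured, with a median of 0.58, beside -0.08 over all measured genes. The 4 well above background on both arrays were all above 0, with a median of 0.88. The other, Hpgds, was a bound from agonists only, which cannot fall below 0. Ptgs1, which encodes the cyclooxygenase COX-1, had 1.41, Alox5ap, which encodes the partner of 5-lipoxygenase, 1.18, and Pla2g4a 0.19. The authors reported COX-1 expression as unchanged by these treatments. The COX expression that they show was measured by real-time PCR relative to β-actin, in repeated independent experiments. The Ptgs1 value here is from 1 spot on each array, scaled by a percentile of the array and without replicates. The assays thus differ in method, scaling and replication, and whether they disagree on this gene was not tested. Hpgds, the prostaglandin D2 synthase gene of mast cells, was well above background with agonists only (24.0, against 15.9), at least 1.02-fold higher, and Alox5 on neither array.

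Mrgprb2 was set beside the other receptors that bind substance P, since the agonist of TACR1 is a substance P analog. Tacr1, which encodes the main substance P receptor, gave 4.74 with agonists and 4.56 with antagonists, and Tacr3 gave 18.5 and 4.55, none of them well above background. Tacr2 gave 2454 with agonists and 2465 with antagonists, a log2 ratio of -0.25, and its second probe was not well above background. Of the related Mrgprb family Mrgprb4, a receptor of sensory neurons, was measured at 64.2 and 53.5 (log2 ratio 0.02), and Mrgprb1, Mrgprb3, Mrgprb5 and Mrgprb8 were not. So the transcript of the mast cell receptor for substance P was not detectable in either group by its probe.

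**Figure D4:**
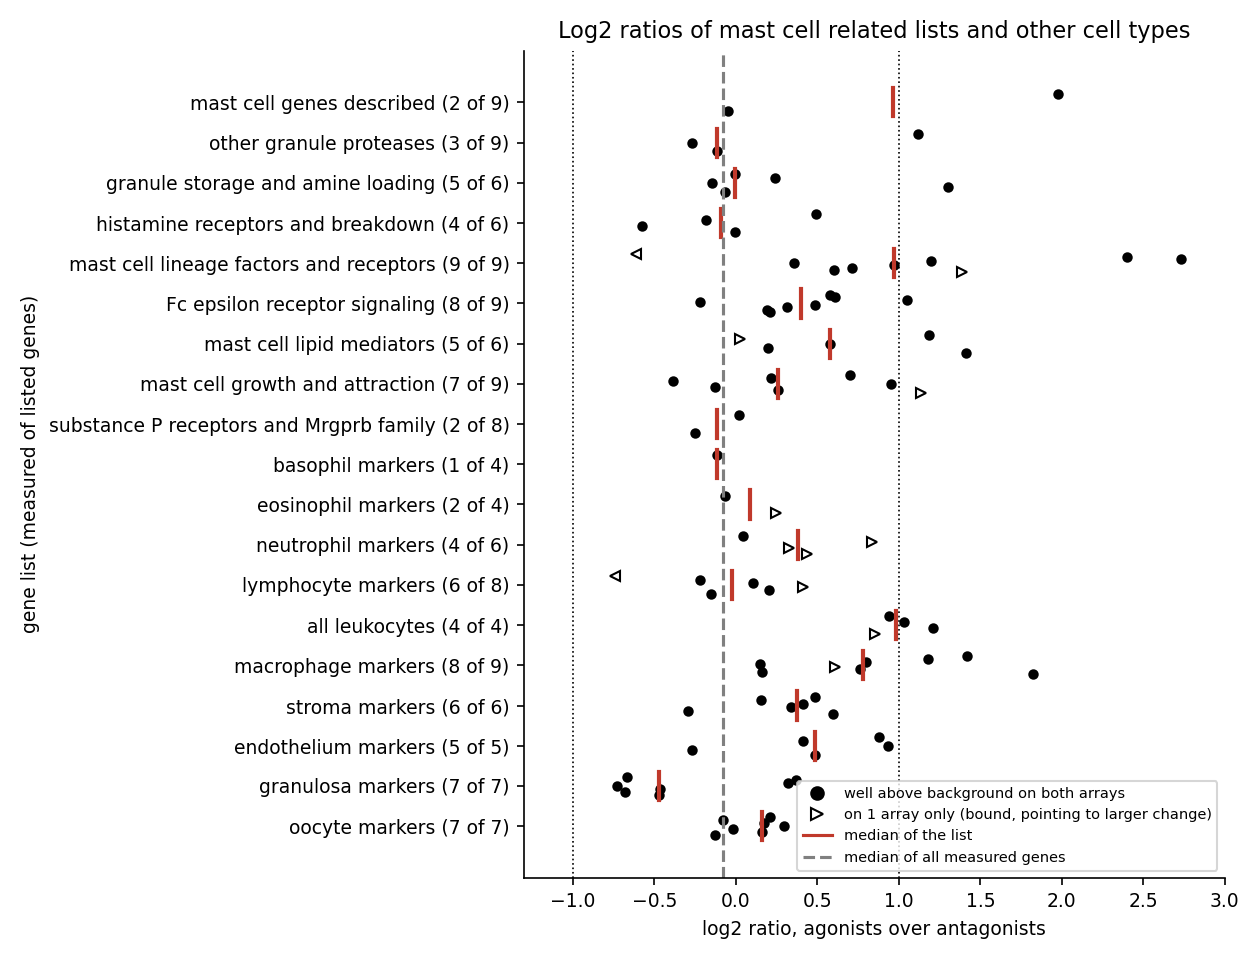
Log2 ratios (agonists over antagonists) of the measured genes of each list (filled points, well above background on both arrays; triangles, bounds of genes well above background on 1 array, pointing to a larger change), with the list's median (red bar), the median of all measured genes (dashed, -0.08) and 2-fold (dotted). The lineage, lipid mediator, leukocyte and macrophage lists have medians of 0.97, 0.58, 0.98 and 0.78, and the other granule proteases, storage and histamine receptor lists have medians close to 0.

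Markers of other cells that could hold these transcripts moved with Hdc in part. All 4 genes of leukocytes in general were above 0, 2 of them at least 2-fold higher, with a median of 0.98: Laptm5 had 1.21 (1.14 by its other probe), Coro1a 1.03 and Cd52 0.94, and Ptprc was at least 1.81-fold higher. Their summed signal was 1298 with agonists and 543 with antagonists. Of 9 macrophage genes 8 were measured, all 8 above 0 and 3 at least 2-fold higher, with a median of 0.78 and summed signals of 10719 and 6933. Ptprc and the macrophage gene Fcgr1 were measured with agonists only, so that their bounds could not fall below 0. With genes well above background on both arrays the medians were 1.03 for leukocytes in general and 0.80 for macrophages. Beside these lists, 4.51% of all measured named genes were at least 2-fold higher with agonists, and their median was -0.08. Mrc1 gave 588 with agonists and 141 with antagonists (log2 ratio 1.82), Adgre1 had 1.42, and 0.72 by its other probe, which is under 2-fold, and Csf1r had 0.15, with its probes between -0.09 and 0.15. The medians of both lists were above 0 under all ways of processing tried, and the part of these cells in the value of Hdc was not tested.

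Basophils, which make histamine as mast cells do, were represented by 1 of 4 markers, Prss34, and the defining protease Mcpt8 was well above background on neither array (4.41 with agonists, 4.63 with antagonists). Eosinophil markers were measured in 2 of 4, with Prg2 and Epx at background, Ccr3 at -0.07 and Siglecf at least 1.19-fold higher. Of 6 neutrophil markers 4 were measured, with a median of 0.38. Elane gave 4613 with agonists and 3781 with antagonists (log2 ratio 0.05), far brighter than the others. Mpo, S100a9 and Ltf were above background with agonists only (29.5, 31.9 and 42.0), at least 1.25-fold, 1.35-fold and 1.78-fold higher, while S100a8 was on neither array. Whether the Elane probe reads neutrophils here was not tested. Lymphocyte markers had 6 of 8 measured, 3 above 0 and 3 below, with a median of -0.02. Cd3e had -0.22 and Ms4a1 0.20, and Cd79a was at least 1.33-fold higher. Their part in the value of Hdc was likewise not tested.

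Markers of the tissues of the ovary were read as well, and each list held ratios on both sides of 0. Whether the tissues themselves differed was not tested. Stroma markers had a median of 0.38 (from -0.30 for Lum and 0.15 for Col1a2 to 0.49 for Col1a1 and 0.60 for Pdgfra), endothelium markers 0.48 (from -0.27 for Kdr, whose other probe gave 0.38, and 0.41 for Egfl7 to 0.88 for Cdh5 and 0.93 for Emcn), oocyte markers 0.16 (from -0.13 for Zp3 and -0.08 for Gdf9 to 0.21 for Bmp15 and 0.29 for Ooep) and granulosa markers -0.47 (from -0.73 for Fshr and -0.68 for Inha to 0.32 for Foxl2, whose other probe gave -0.37, and 0.37 for Cyp19a1). The log2 ratio of Hdc was larger than that of each marker named here, and that of Tpsb2 lay among them. The part of these tissues in the value of Hdc was not tested.

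The ratios of Hdc and Tpsb2 were computed again under other ways of scaling and background correction. For Hdc the log2 ratio lay between 1.85 and 2.25, always over 2-fold. For Tpsb2 it lay between -0.21 and 0.22, on both sides of 0 and always under 2-fold.

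**Figure D5:**
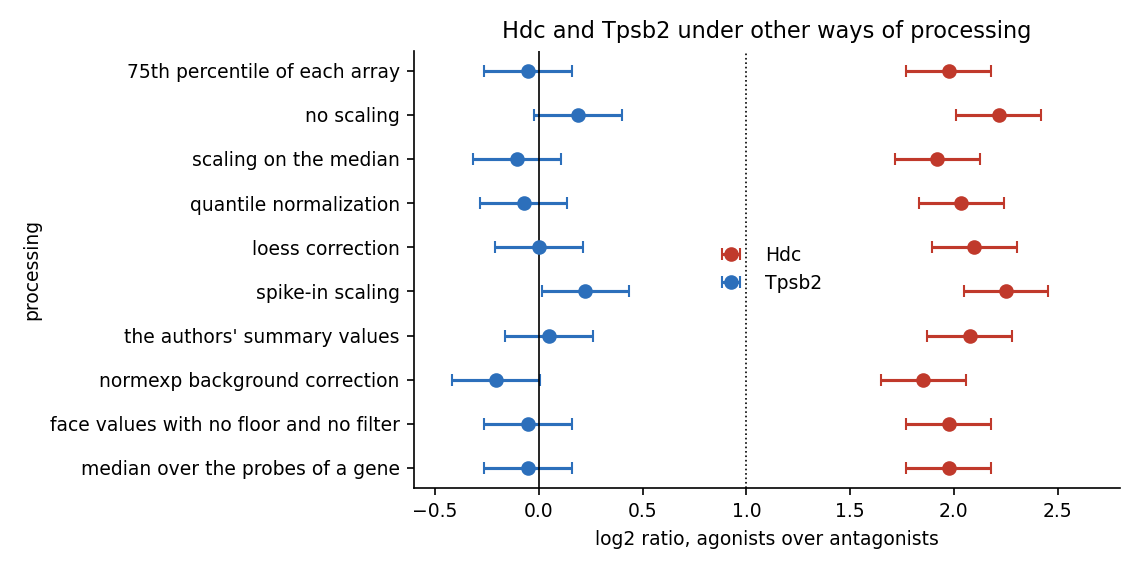
Log2 ratio (agonists over antagonists) of Hdc (red) and Tpsb2 (blue) under each way of processing, with bars for the error of the image software; the dotted line marks 2-fold. Hdc lies between 1.85 and 2.25 and Tpsb2 between -0.21 and 0.22.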

How the data were processed

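The authors extracted total RNA (RNeasy Plus Mini), labeled it with Cy3 (Low Input Quick Amp, One-Color) and read SurePrint G3 Mouse GE 8 x 60K arrays with Agilent Feature Extraction 10.10.1.1; the array was designed on mm9. The deposited value of a spot is a linear intensity from which the software had removed background, not scaled between arrays, with its error and its marks for background, saturation and outliers. The deposited summary intensity equals the processed signal times a constant of each array (1.99 with agonists, 2.19 with antagonists).

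Processed signals of spots other than controls were converted to log2 and lowered by the 75th percentile of the array, outlier spots were removed and spots of a probe were averaged (55674 probes). Symbols came from unversioned RefSeq transcripts listed for GRCm38.p6 and were found for 27230 probes; no coordinates of that table are given apart from the promoter windows. The mark for background of a probe is that of the majority (over 50%) of its spots. A gene was represented by its probe with the highest mean signal, and the text gives other measured probes of a named gene where their ratios differ. Where 1 array only was well above background, the fold is a bound: the bright signal was divided by the dim signal or by the lowest signal so marked on that array, whichever was higher. Such a bound cannot fall below 0 in log2 with agonists only, nor rise above 0 with antagonists only. Its sign was thus set by which array measured the gene. With neither array so marked, no fold is given. A single array for each group allows no test, so p-values are not given, and the number of arrays limits the precision.

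The genes named are the 9 described, Kit, Kitl, Mcpt8, Tacr1, Tacr2, Tacr3, Fcer1g, Srgn and Ctsc, and in each list up to 2 genes with the highest and up to 2 with the lowest ratio or bound. Genes at background, genes of the histamine pathway and genes with no probe were named besides, after their values had been seen, and some genes that this rule names are not reported here. The genes and lists were chosen with earlier results of these data known. Alternatives tried were the authors' summary values, no scaling, and scaling by quantiles, loess (span 0.3), the median or spike-in controls, and further normexp (offset 50, on the median spot signal), other filters on dim probes, the median over the probes of a gene and a 4-fold threshold. The calculation was tested on simulated data. Python 3.11.15, numpy 2.4.6, pandas 2.3.3, statsmodels 0.14.6, matplotlib 3.10.9, R 4.3.3 and limma 3.58.1 were used.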

Additional observations from a re-analysis of the deposited data

How the results depend on the processing

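Of 50 values recomputed under the alternatives, 41 moved by less than the error of the spots or stayed at the same count, 8 moved by more, and 1, the median of the list, moved from above to below 0. The ratio of Tpsb2, which is within its error of 0, was below 0 in the main setting and above 0 by loess (0.00), by the authors' summary values (0.05), after spike-in scaling and without scaling. Without scaling, the log2 ratio was 2.22 for Hdc and 0.19 for Tpsb2, with a median of 1.20 over both, and with spike-in scaling it was 2.25 for Hdc and 0.22 for Tpsb2, with a median of 1.24. Both settings raise every ratio by a constant, and over the scalings the median of all genes ranged from -0.14 to 0.19. With face values and no filter on dim probes, 2 genes of the list were at least 2-fold higher, Cma1 joining Hdc, and the median over 8 genes was -0.14; 6 of these 8 are at background on both arrays. With a 4-fold threshold 0 genes of the list were called, as Hdc stood at 3.93-fold. The main median, 0.96, rests on Hdc and Tpsb2 alone.

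Over all named genes, the counts at least 2-fold higher and lower were 734 and 139, against 1170 and 78 without scaling, 340 and 48 by normexp, 1241 and 73 after spike-in scaling, 1349 and 554 at face value, 133 and 24 with the 4-fold threshold, and 612 and 88 with genes well above background on both arrays. The medians of the lists for other granule proteases, storage, histamine, substance P receptors, basophils, eosinophils and lymphocytes changed sign under some alternatives. No paired analysis was possible because a group is a single array and nothing was tested. Of the 9 probes, 7 were not well above background on either array, which limits what can be said of them.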
